A study of Mus musculus with 15 samples.

Results

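The 43 genes described here encode the constitutive proteasome and its closest helpers in mouse CT26 cells. They were taken by symbol alone (Psma1 to Psma7, Psmb1 to Psmb7, Psmc1 to Psmc6, every Psmd gene, Psme1 to Psme4, Psmf1 and Psmg1 to Psmg4) from the 34432 genes listed in each of 2 expression tables. CT26 is a colon carcinoma line of BALB/c mice, and its mRNA was sequenced in 15 libraries, 3 in each of 5 groups. In the knockdown table, CT26 cells carrying a tetracycline-inducible hairpin against Prmt1 (shPrmt1, induced with doxycycline for 3 days) were set against a control knockdown (shControl, for which the labels give no doxycycline). In the inhibitor table, wild-type CT26 cells given MS023 or GSK3368715, both inhibitors of type I arginine methyltransferases, at 6 µM for 48 h were set against cells given Vehicle. The knockdown rests on 1 stable line, not said to be a clone, and the labels do not say whether the libraries of a group came from separate cultures. The study states in general that its data come from independent experiments or biological replicates, without saying which holds for these libraries, so the p-values below measure the spread between these libraries, which may be partly technical.

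The proteasome degrades proteins tagged with ubiquitin. Its core particle is a barrel of alpha and beta rings with the proteolytic sites on the inside, and a regulatory cap of ATPases (base) and a lid recognises, unfolds and feeds in the substrates. In cells exposed to interferon, the catalytic beta subunits encoded by Psmb5, Psmb6 and Psmb7 are replaced in new particles by Psmb8, Psmb9 and Psmb10, and interferon also raises Psme1 and Psme2, which form an activator ring that docks on the core in place of the cap and favours the release of peptides for MHC class I presentation. By role, the 43 genes comprised 14 core genes, 17 cap genes, 7 assembly chaperones (Psmd5, Psmd9, Psmd10, Psmg1 to Psmg4), the 2 interferon-linked activators Psme1 and Psme2, the nuclear activators Psme3 and Psme4, and Psmf1, a binding partner that inhibits the core.

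Values are read counts per gene that the authors divided by a size factor for each library (normalized read counts), and the 2 tables were normalized separately, so levels are not compared between them. Counts assigned to genes ranged from 17284091 to 29233738 per library in the knockdown table and from 40119305 to 93697833 in the inhibitor table. Prmt1 itself stood at 5601, 5717 and 5620.1 normalized read counts in the shControl libraries and at 669, 761 and 683 in the shPrmt1 libraries, which puts the knockdown in every library labelled with it. In control cells of both tables Krt18 and Krt20 were present, while the epithelial markers Epcam, Cdh1, Krt19 and Vil1 were at or near 0 (at most 3.67 normalized read counts), as were Ptprc, Cd3e and Adgre1, markers of leukocytes (at most 6.11). Changes are given as log2 fold changes of normalized read counts plus 1, and a gene is called where its adjusted p from limma is under 0.05 (Benjamini-Hochberg over all genes with at least 10 normalized read counts in at least 3 libraries). All 43 genes passed that filter in both tables, among 11485 and 13014 genes tested. Rescaling the libraries to the same total moved the share of all called genes that were higher. That share went from 51.1% to 61.9% in the knockdown, from 49.2% to 59.3% with MS023 and from 61.2% to 46.8% between the inhibitors. The median log2 fold change of all genes went from -0.0036 to 0.029 in the knockdown and from 0.0028 to 0.037 with MS023. It went from 0.00042 to 0.015 with GSK3368715 and from 0.0046 to -0.015 between the inhibitors.

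Psme1 and Psme2 are neighbours on mouse chromosome 14 and are transcribed towards each other (GRCm38, GENCODE M21). Psme1 lies on the plus strand at chr14:55578123-55581529 and Psme2 on the minus strand at chr14:55587441-55591113, with Emc9 between them. Psmg3, which encodes an assembly chaperone of the core, lies on the minus strand at chr5:139823592-139826885, and Psmd9, a chaperone of the cap base, on the plus strand at chr5:123169413-123250131. The promoters of these genes (RefSeq, GRCm38.p6, 250 bases before to 50 after the start) are shown because these genes carried the largest changes described below. Capitals mark matches, on either strand, to GAAANNGAA, the core of the interferon-stimulated response element, or to TGACNNNGC, the core of the antioxidant response element bound by NFE2L1 and NFE2L2. A further motif, TTCNNNGAA, the gamma-activated sequence, reads alike on both strands and was searched in the same way, and matches to different motifs may share bases.
Psme1, chr14:55578244-55578543, plus strand: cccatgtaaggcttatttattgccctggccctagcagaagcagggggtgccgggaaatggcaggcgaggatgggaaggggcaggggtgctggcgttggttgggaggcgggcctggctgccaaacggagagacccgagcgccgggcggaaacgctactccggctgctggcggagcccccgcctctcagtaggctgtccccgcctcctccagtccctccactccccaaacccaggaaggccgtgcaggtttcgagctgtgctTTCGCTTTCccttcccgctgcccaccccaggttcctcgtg
Psme2, chr14:55591052-55591351, minus strand: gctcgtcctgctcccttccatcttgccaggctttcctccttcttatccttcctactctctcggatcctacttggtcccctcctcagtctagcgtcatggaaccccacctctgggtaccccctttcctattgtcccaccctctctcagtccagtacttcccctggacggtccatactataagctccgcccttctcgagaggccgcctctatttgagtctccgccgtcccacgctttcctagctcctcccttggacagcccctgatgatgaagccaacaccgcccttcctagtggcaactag
Psmg3, chr5:139826845-139827144, minus strand: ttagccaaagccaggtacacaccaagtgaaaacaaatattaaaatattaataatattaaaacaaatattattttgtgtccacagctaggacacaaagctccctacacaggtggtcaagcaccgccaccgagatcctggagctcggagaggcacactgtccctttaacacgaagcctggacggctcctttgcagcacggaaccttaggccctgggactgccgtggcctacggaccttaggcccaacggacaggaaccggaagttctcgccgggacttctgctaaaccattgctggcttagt
Psmd9, chr5:123227940-123228239, plus strand: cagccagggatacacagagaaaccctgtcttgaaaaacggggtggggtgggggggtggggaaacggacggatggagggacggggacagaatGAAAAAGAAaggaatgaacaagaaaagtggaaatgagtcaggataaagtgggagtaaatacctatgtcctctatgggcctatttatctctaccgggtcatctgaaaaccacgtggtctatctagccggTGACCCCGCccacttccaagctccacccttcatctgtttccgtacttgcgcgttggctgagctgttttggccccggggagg

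Counting the start as position 0, the Psme1 window held TTCGCTTTC, the element read on the opposite strand, at positions 10 to 18, and neither RefSeq window of Psme2 held a match to it or to the other motifs. The Psmd9 window held GAAAAAGAA at positions -159 to -151 and TGACCCCGC at positions -31 to -23, and that of Psmg3 held none of the 3 motifs. RefSeq windows were matched for 36 of the 43 genes. GAAANNGAA was present for 7 of those 36 genes (19.4%), beside 9.76% of 27025 genes with a window of the same length, and those 7 were Psmb3, Psmb4, Psmc2, Psmd4, Psmd9, Psme1 and Psmg4. TGACNNNGC was present for 6 of 36 (16.7%, beside 3781 of the 27025 genes), among them the catalytic subunits Psmb5, with TGACGTCGC, and Psmb6, with TGACGGAGC. TTCNNNGAA was present for 2 of 36 (5.56%, beside 9.55%), Psmd2 and Psmg1, while the immunoproteasome gene Psmb8 held TTCCCAGAA at positions -97 to -89. These counts describe letters in short windows and were not tested.

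Levels in control cells were compared per kilobase of exon. In shControl cells the median was 1226 normalized read counts per kb over the 14 core genes, 1190.0 over the 17 cap genes and 361 over the 7 assembly chaperones. In Vehicle cells the corresponding medians were 3126, 3138 and 949. Core and cap genes stood at like levels, with a ratio of their medians of 1.03 in shControl and 0.998 in Vehicle cells, and the chaperones below both. With the longest transcript as the length, the ratio was 1.14 and 1.17. Per kb of exon, Psma5, an alpha ring subunit, ranked highest in both tables, at 3643 ± 75.4 (SD, n = 3) in shControl and 8343 ± 933 in Vehicle cells. Psmd2, a scaffold of the cap base, ranked second, at 2632 ± 33.7 and 6954 ± 277. By the longest transcript, Psma5 ranked 1 in shControl and 3 in Vehicle cells, where Psmd2 ranked 1, and Psmd2 ranked 3 in shControl cells. The lowest 3 ranks were held in both tables by Psmd9, Psmf1 and Psmg3 (by the longest transcript, Psmg4 ranked 41 and Psmd9 40 in shControl cells), with Psmg3 at 108 ± 2.68 in shControl and 316 ± 28.8 in Vehicle cells.

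The interferon-linked activators took different places in the 2 sets of control cells. Psme1 ranked 28 of 43 in shControl cells (787 ± 80.5 per kb) and 15 of 43 in Vehicle cells (3627 ± 323 per kb). Psme2 ranked 30 in shControl cells (649.5 ± 28.5) and 18 in Vehicle cells (3138 ± 176). By the longest transcript the order of the pair was reversed, with Psme2 at 29 and Psme1 at 33 in shControl cells. In Vehicle cells that length put them at 14 and 22. Of the 42 pairs of neighbours in the order of levels per kb of exon, 33 in shControl and 32 in Vehicle cells differed by less than the sum of their SDs. Most adjacent ranks were therefore not separated.

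**Figure D1:**
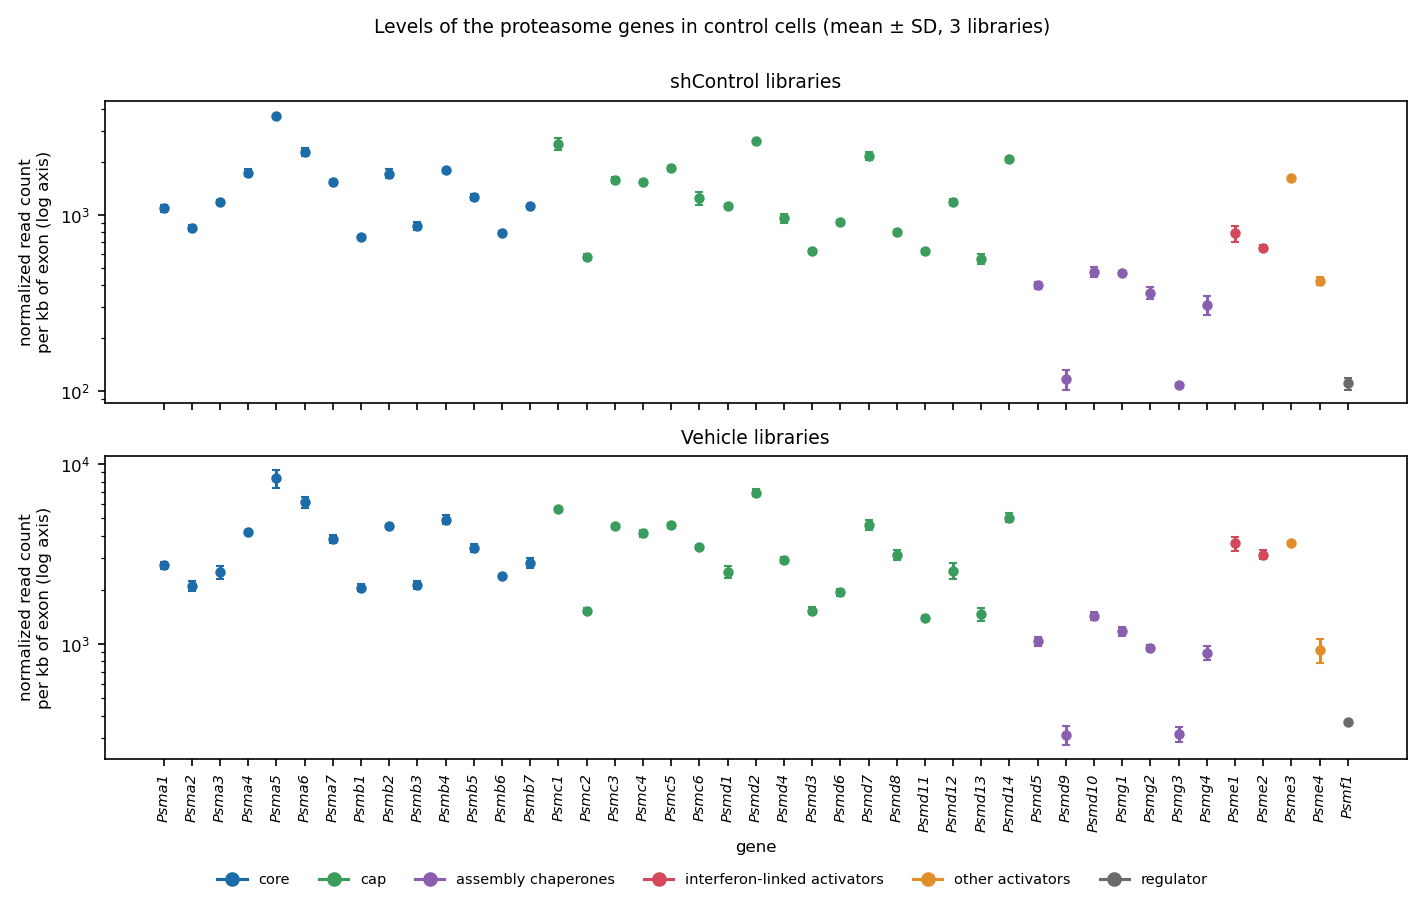
Normalized read count per kb of exon (log axis) of each of the 43 genes in the 3 shControl libraries (top) and the 3 Vehicle libraries (bottom), as mean and SD, coloured by role. Core and cap genes share a range, and Psmd9, Psmf1 and Psmg3 lie lowest in both panels.

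The first question was how these genes differed between shPrmt1 and shControl cells. In shPrmt1 cells 2 of the 43 genes passed the test against shControl, Psme2, which rose, and Psmg3, which fell. By comparison, 7.5% of all genes tested were called higher and 7.17% lower, so the share of the proteasome genes called, 1 in each direction, was below the background. The count was 1, Psme2, without shControl 1, 2 or 3 or shPrmt1 3, and it was 7 without shPrmt1 2. With the replicate number as a block it was 7, of which 6 were lower, where 2671 of all genes were called. The shPrmt1 and shControl libraries did not overlap for 4 of 43 genes in the higher direction and for 13 of 43 in the lower direction (19.2% and 18.9% of all genes tested). Each value is an average over a culture, so a change in some cells and a smaller change in all of them cannot be told apart.

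Psme2, the beta subunit of the activator ring, stood at 1194, 1094 and 1149.9 normalized read counts in the shControl libraries and at 1699, 1584 and 1704 in the shPrmt1 libraries. The lowest shPrmt1 value was above the highest shControl value. The difference was 1.45-fold (log2 fold change 0.54, SE 0.07, 95% interval 0.38 to 0.69, limma adjusted p = 0.00194). Its partner Psme1, the alpha subunit, stood at 1844, 1533 and 1838 in shControl and at 2079, 1728 and 2052 in shPrmt1 libraries. Library 2 was the low one in each group, and shPrmt1 was above shControl within each replicate number. The groups overlapped, with a log2 fold change of 0.17 (95% interval -0.06 to 0.40, limma adjusted p = 0.296). Within a library, the ratio of Psme2 to Psme1 counts was 0.648, 0.713 and 0.626 in shControl and 0.817, 0.917 and 0.830 in shPrmt1 cells, without overlap.

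Psmg3 was the member called lower. It stood at 306, 321 and 309.6 in the shControl libraries and at 243, 240.0 and 239.9 in the shPrmt1 libraries, without overlap (log2 fold change -0.37, SE 0.09, limma adjusted p = 0.0254). This call was not kept without any of shControl 1, 2 or 3 or shPrmt1 1 or 3, where the adjusted p reached up to 0.0996 and the log2 fold change stayed between -0.39 and -0.34. Among the other chaperones, Psmd9 stood at 811, 755 and 964 in shControl and at 685, 520.0 and 715 in shPrmt1 libraries, which did not overlap either (log2 fold change -0.40, SE 0.14, limma adjusted p = 0.0884). Psmg1 was at 641, 618 and 631 in shControl and 532, 561 and 554 in shPrmt1 libraries (log2 fold change -0.20, limma adjusted p = 0.104). Of the 7 chaperones 6 had a negative log2 fold change, and their median was -0.20, beside -0.00357 over all genes tested. DESeq2 on whole reads also called Psmd9.

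None of the 14 core and 17 cap genes was called in the knockdown by limma without a block or by edgeR, and 3 and 1 of them had an unadjusted p under 0.05. DESeq2 called 2 core genes lower, the structural beta subunits Psmb2 and Psmb3 (-0.22 and -0.26 by limma), and no cap gene, while limma with the replicate number as a block called 2 core genes and 1 cap gene (Psmb2, Psmb3 and Psmc4) lower. The median log2 fold change was -0.04 for the core and -0.05 for the cap, and the values spanned -0.26 to 0.15 for the core and -0.18 to 0.10 for the cap, all below that of Psme1. The catalytic subunits were among them. Psmb5 (chymotrypsin-like activity) stood at 1189, 1105 and 1119 in shControl and at 1053, 965 and 1095 in shPrmt1 libraries, a log2 fold change of -0.13 (95% interval -0.31 to 0.04, limma adjusted p = 0.265). The reads of Psmb5 are uncertain, because the processed pseudogene Gm3375 on chromosome 7 matches 88.4% of its transcript at 98.9% identity and held 42.5% of the counts of the pair. Psmb6 (caspase-like activity) stood at 1502, 1434 and 1490.4 in shControl and at 1654, 1402 and 1565 in shPrmt1 libraries, which overlapped (0.06, 95% interval -0.12 to 0.24). Psmb7 (trypsin-like activity) stood at 3878, 3792 and 3837 and at 3886, 3644 and 3841, with an interval of -0.15 to 0.11.

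Of the remaining regulators, Psmf1 stood at 670.0, 687 and 774 in shControl and at 613, 501 and 588 in shPrmt1 libraries, without overlap (log2 fold change -0.33, SE 0.10, limma adjusted p = 0.0669). DESeq2 and limma with a replicate block called it lower. Psme3, which forms a nuclear activator ring of its own and is not induced by interferon, stood at 4825, 4777 and 4705 in shControl and at 5269.9, 5286 and 5371 in shPrmt1 libraries. All shPrmt1 libraries were above all shControl libraries, by 0.15 on the log2 scale (SE 0.05, limma adjusted p = 0.079). It was called higher by DESeq2 (adjusted p = 0.0347), with the libraries rescaled to the same total and without shPrmt1 2. Psme4 was at 3405, 3729 and 3417 in shControl and 3159.6, 3936 and 3303 in shPrmt1 libraries, with overlapping groups and a log2 fold change of -0.03.

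**Figure D2:**
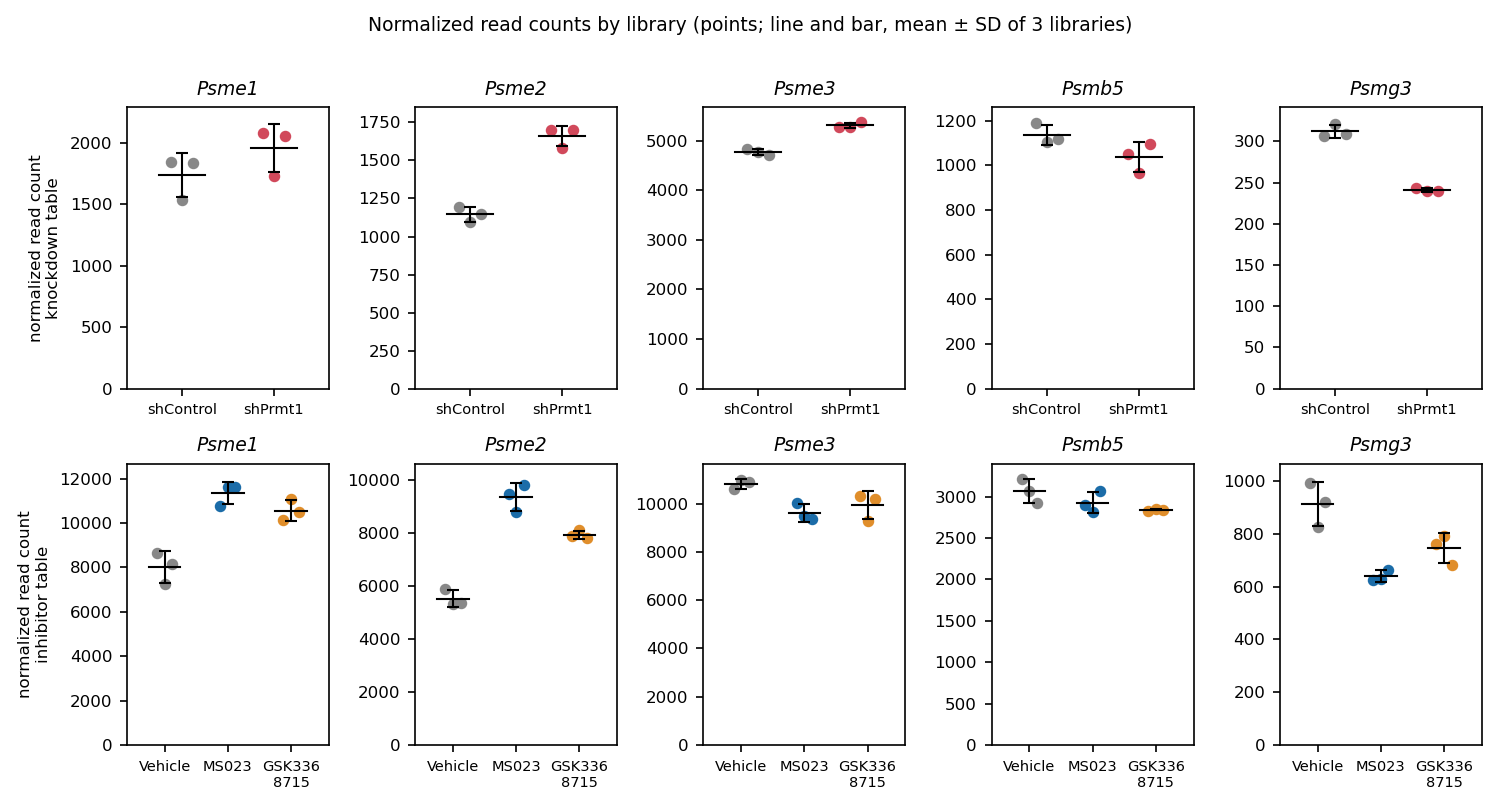
Normalized read counts (linear axes from 0) of Psme1, Psme2, Psme3, Psmb5 and Psmg3 in each library of the knockdown table (top) and the inhibitor table (bottom), with the mean and SD of 3 libraries. Psme2 is above its control in every treated library, and Psme3 lies above shControl in the knockdown but below Vehicle under both inhibitors.

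The second question was how the same genes differed between cells given either inhibitor of type I arginine methyltransferases and Vehicle cells. Under MS023, 9 of the 43 genes were called: Psme1 and Psme2 rose and 7 genes fell. Of all genes tested 13.7% were called higher and 14.1% lower, so the 2 of 43 called higher were below and the 7 of 43 called lower near the background. The libraries did not overlap for 4 of 43 genes in the higher and 11 of 43 in the lower direction, beside 22.4% and 22.1% of all genes. Under GSK3368715, at the same dose and time, Psme1 and Psme2 rose and no other member was called, where 5.16% of all genes were called higher and 4.47% lower. Without Vehicle 2 the count was 5, with Psma5 higher and Psmd9 and Psmg3 lower. With all libraries, the groups did not overlap for 5 of 43 genes in the higher and 9 of 43 in the lower direction, beside 13.7% and 14.1%. Both inhibitor comparisons use the same 3 Vehicle libraries.

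Psme2 stood at 5893, 5339 and 5373 normalized read counts in the Vehicle libraries, at 9490.2, 8811 and 9823 with MS023, and at 7908, 8121 and 7812 with GSK3368715. The 3 groups did not overlap, with MS023 the highest. Psme2 rose 1.69-fold with MS023 (log2 fold change 0.76, SE 0.06, limma adjusted p = 3.26e-05) and 1.44-fold with GSK3368715 (0.52, SE 0.06, limma adjusted p = 0.000878). A near-identical gene, Psme2b on chromosome 11 (99.3% identity over 90.1% of the transcript), held 5.52% of the counts of the pair in this table and 3.09% in the knockdown table. With its counts added, the log2 fold changes were 0.71 with MS023, 0.51 with GSK3368715 and 0.56 in the knockdown.

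Psme1 stood at 8653, 7243 and 8139 in the Vehicle libraries, at 10774, 11624 and 11631 with MS023, and at 10126, 11068 and 10481 with GSK3368715. Both inhibitor groups were above every Vehicle library and overlapped each other. The log2 fold change was 0.50 with MS023 (SE 0.07, limma adjusted p = 0.000586) and 0.40 with GSK3368715 (SE 0.07, limma adjusted p = 0.00672). The ratio of Psme2 to Psme1 counts within a library was 0.693 ± 0.0398 (SD, n = 3) with Vehicle, 0.828 ± 0.0631 with MS023 and 0.753 ± 0.0246 with GSK3368715.

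The rise of Psme1 and Psme2 was not shared by the core or the cap. Among the 14 core genes the highest log2 fold change was 0.12 with MS023 and 0.13 with GSK3368715, and among the 17 cap genes it was 0.06 and 0.10. The medians were -0.05 and 0.02 for the core and -0.08 and -0.03 for the cap. With MS023, 14 of the 17 cap genes had a negative log2 fold change, beside 6448 of 13014 genes tested, and 12 had with the libraries rescaled to the same total.

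Averaged over genes within each library, the pair Psme1 and Psme2 stood 0.42, 0.23 and 0.41 above the mean of the controls on the log2 scale in shPrmt1 libraries, 0.61, 0.61 and 0.69 with MS023 and 0.43, 0.51 and 0.45 with GSK3368715. The control libraries themselves ranged from -0.12 to 0.08 in the knockdown and from -0.10 to 0.10 with the inhibitors. The core mean was -0.031, -0.021 and -0.053 in shPrmt1 libraries, below the shControl range of -0.019 to 0.018 by little. It was between -0.069 and 0.00038 with MS023 and between -0.012 and 0.026 with GSK3368715, where the Vehicle libraries ranged from -0.059 to 0.063 and MS023 2 alone fell outside that range. The cap mean was -0.059, -0.032 and -0.039 in shPrmt1 libraries, also below the shControl range of -0.017 to 0.017. With MS023 it was -0.013, -0.117 and -0.104, so that MS023 2 and 3 lay below the lowest Vehicle library at -0.038, and with GSK3368715 it stayed within the Vehicle range, between -0.034 and -0.017. The assembly chaperones stood at -0.16, -0.26 and -0.08 in shPrmt1 libraries, at -0.16, -0.23 and -0.23 with MS023 and at -0.14, -0.09 and -0.14 with GSK3368715, each below its lowest control library. In size, the core and cap shifts in the knockdown depended on the scaling. Rescaled to the same total, the median log2 fold changes were -0.0036 for the core, -0.022 for the cap and -0.17 for the chaperones. With the authors' size factors these medians were -0.036, -0.055 and -0.20.

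**Figure D3:**
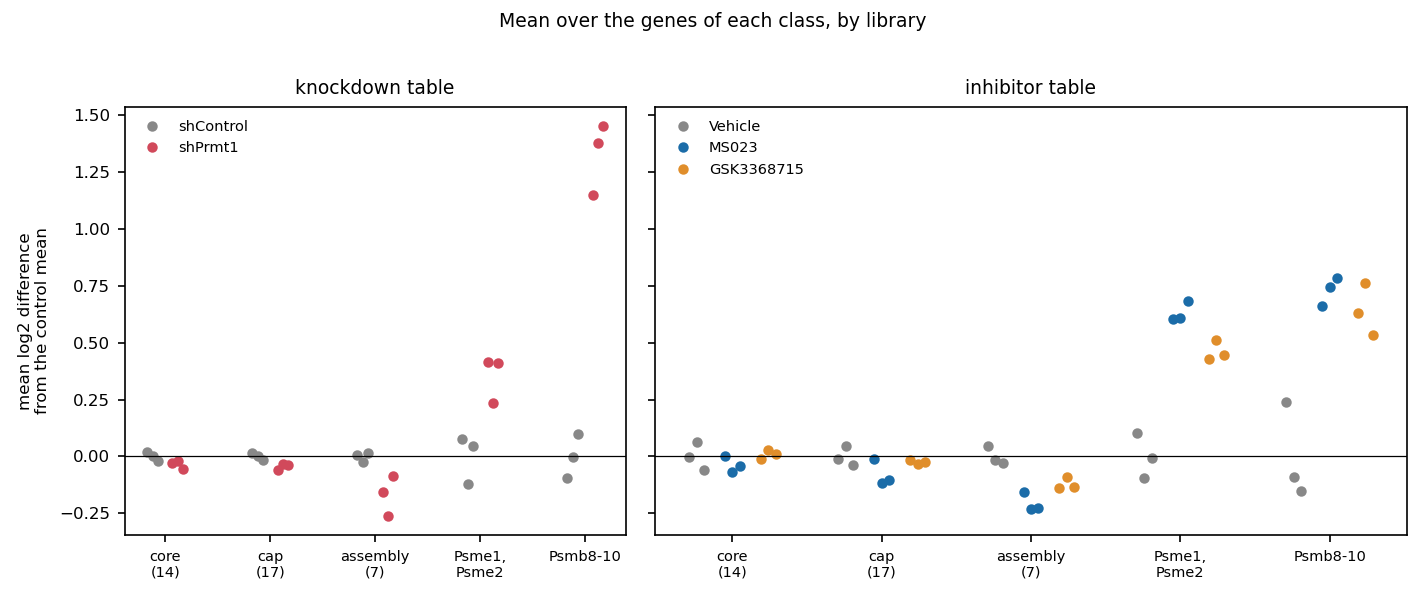
Mean over the genes of each class of the log2 difference from the mean of the control libraries, for each library of the knockdown (left) and inhibitor (right) tables. The mean of Psme1 and Psme2 and that of the 3 immunoproteasome genes lie above 0 in every treated library, although Psmb10 by itself was at -0.18 in the knockdown. The core means stay between -0.0694 and 0.0631 and the cap means between -0.117 and 0.0477. The mean of the assembly chaperones lies below 0 in every treated library.

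The 7 genes that fell with MS023 were 3 of 7 assembly chaperones, 1 of 14 core genes, 2 of 17 cap genes and Psme3. Of all genes tested, 14.1% were called lower. Psmg3 stood at 991, 825 and 923 in Vehicle, at 625, 630.0 and 665 with MS023 and at 760.0, 793 and 683 with GSK3368715. Both inhibitor groups were below every Vehicle library, and MS023 was also below GSK3368715. The log2 fold change of Psmg3 was -0.51 with MS023 (SE 0.09, limma adjusted p = 0.00216) and -0.29 with GSK3368715 (SE 0.09, limma adjusted p = 0.0633). Psmg3 shares exonic sequence with the annotated gene Gm26938 on the same strand, which held 0.901% of the counts of the pair, and adding it left -0.51 and -0.29.

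Psmg1, another chaperone of the core alpha ring, stood at 1614, 1643 and 1476 in Vehicle, at 1376, 1229 and 1205 with MS023 and at 1396, 1535 and 1530.3 with GSK3368715. It was lower in every MS023 library than in any Vehicle library, by 0.31 on the log2 scale (SE 0.08, limma adjusted p = 0.011), whereas GSK3368715 overlapped Vehicle (-0.09, 95% interval -0.25 to 0.08). Psmd9 stood at 2581, 2074 and 2141 in Vehicle, at 1808, 1894 and 1797 with MS023 and at 1821, 1775 and 2003 with GSK3368715. The inhibitor libraries were below the Vehicle libraries (-0.30, limma adjusted p = 0.0243 with MS023, and -0.27, limma adjusted p = 0.0685 with GSK3368715). Vehicle 1 was the highest of the 9, and the MS023 value no longer passed the test without it or without any of the MS023 libraries (adjusted p up to 0.077). Exons of Psmd9 overlap an antisense transcript, Gm26745, over 25.5% of their length, and since the strand setting of the counting is not given, reads of the 2 cannot be told apart.

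In the core and cap, 3 genes fell with MS023. Psmb2, a structural beta subunit, stood at 5379.8, 5551 and 5387 in Vehicle and at 4679, 4422 and 4634 with MS023, without overlap (log2 fold change -0.25, SE 0.06, limma adjusted p = 0.00792). Psmd4, a ubiquitin receptor of the cap, stood at 8506, 7904 and 8336 in Vehicle and at 7249, 6932 and 7229 with MS023, also without overlap (-0.21, SE 0.05, limma adjusted p = 0.00928). Psmc4, an ATPase of the base, stood at 9352, 8932 and 8539.5 in Vehicle and at 8074, 7477 and 7845 with MS023 (-0.20, SE 0.05, limma adjusted p = 0.0164). With GSK3368715 the log2 fold changes of these 3 were -0.13, -0.13 and -0.14, and none passed the test (limma adjusted p = 0.17, 0.122 and 0.104).

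Psme3, the remaining gene called lower with MS023, stood at 10591, 10970.3 and 10876 in Vehicle, at 10038, 9476 and 9342 with MS023 and at 10329.6, 9266 and 10199 with GSK3368715. Every inhibitor library was below every Vehicle library. The log2 fold change was -0.17 with MS023 (SE 0.05, limma adjusted p = 0.0414) and -0.12 with GSK3368715 (limma adjusted p = 0.183). The MS023 call was lost in several other fits, among them edgeR and those without Vehicle 2 or 3, MS023 2 or 3 or GSK3368715 3, with an adjusted p of up to 0.135. Psme4 stood at 6617, 9027 and 7628 in Vehicle, 7585, 7611 and 7136 with MS023 and 7633, 6838 and 7773 with GSK3368715, and all groups overlapped. Psmf1 stood at 2317, 2346 and 2414 in Vehicle, at 2088, 2175 and 2373 with MS023 and at 2195, 2164 and 2307 with GSK3368715, with log2 fold changes of -0.09 and -0.09 that did not pass the test.

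The catalytic subunits did not pass the test with either inhibitor. Psmb5 stood at 3213, 3072 and 2919.7 in Vehicle, at 2902, 2815 and 3064 with MS023 and at 2831, 2847 and 2843 with GSK3368715. The GSK3368715 libraries lay just below the lowest Vehicle library (log2 fold change -0.11, 95% interval -0.23 to 0.01), and MS023 overlapped Vehicle (-0.07, interval -0.19 to 0.06). The pseudogene Gm3375 held 43.3% of the counts of the Psmb5 pair in this table. Psmb6 stood at 4506, 4451 and 4392 in Vehicle, at 4553, 4347 and 4511 with MS023 and at 4391, 4809 and 4417 with GSK3368715, all overlapping. Psmb7 stood at 9447, 10436 and 9252 in Vehicle, at 9419.6, 9336 and 9407 with MS023 and at 9581, 9697 and 10041 with GSK3368715. For Psmb6 and Psmb7 the 95% intervals of both inhibitors lay within -0.17 to 0.14 on the log2 scale.

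**Figure D4:**
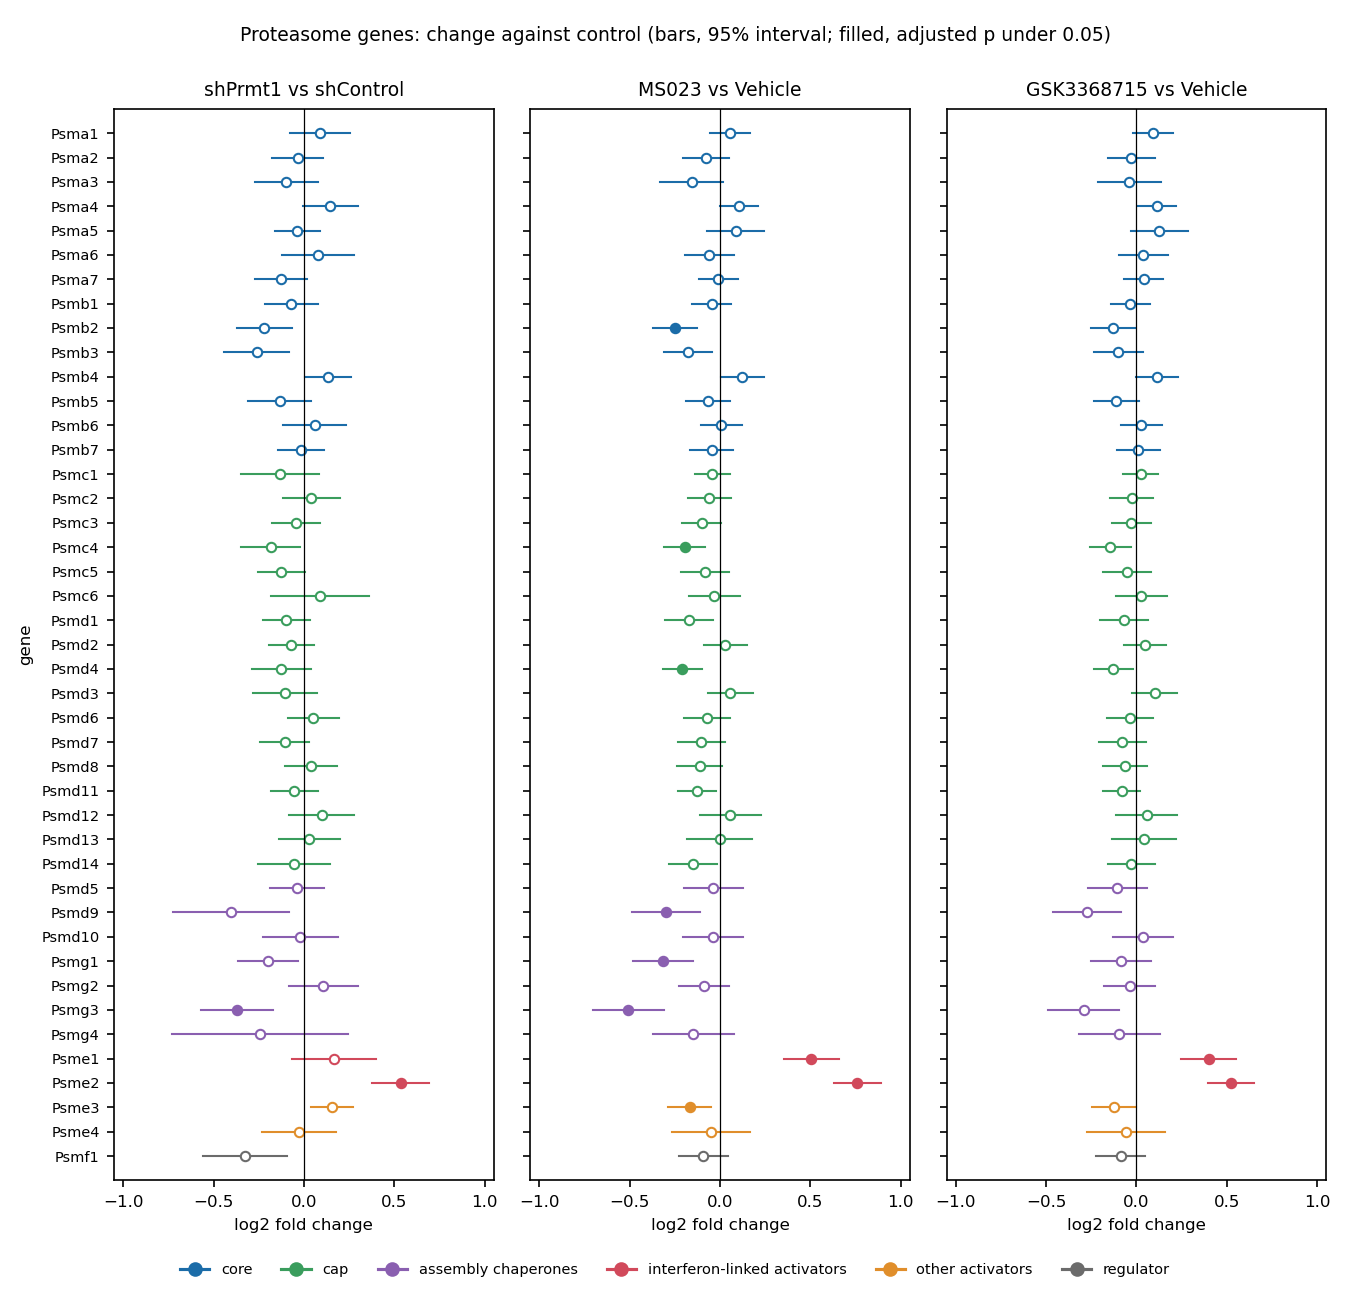
Log2 fold change (x axis) of each of the 43 genes with its 95% interval from limma, against shControl (left) or Vehicle (middle and right), coloured by role, with filled points where the adjusted p is under 0.05. Psme2 is the gene called in the same direction in all 3 panels, and the core and cap genes lie close to 0.

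Across the 3 comparisons with a control, Psme2 was the gene called in the same direction in each, and it was called under all of the alternative fits tried, leaving out any 1 library included. Its log2 fold change ranged from 0.50 to 0.57 in the knockdown, from 0.71 to 0.81 with MS023 and from 0.50 to 0.57 with GSK3368715. Psme1 was called under all of those fits with both inhibitors (0.43 to 0.56 and 0.33 to 0.46), and under none of them in the knockdown (0.08 to 0.25, adjusted p from 0.0578 to 0.635).

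Tested directly against each other at 6 µM and 48 h, GSK3368715 and MS023 differed for 0 of the 43 genes by limma, where 0.515% of all genes tested were called. Unadjusted p was under 0.05 for 3 of them, edgeR called 0 and DESeq2 called 1, Psme2. Psme2 was lower with GSK3368715 than with MS023 by a log2 difference of -0.24 (95% interval -0.37 to -0.11, limma adjusted p = 0.119), without overlap of the libraries. For Psme1 the difference was -0.10 (95% interval -0.26 to 0.05). Psmg1 and Psmg3 were higher with GSK3368715, by 0.23 and 0.22 (limma adjusted p = 0.229 and 0.325), each without overlap. Of the 43 genes 37 had the higher mean log2 level with GSK3368715, all 17 cap genes among them, at a median difference of 0.05, where 51.4% of all genes and 54.2% of the 9012 genes within the same range of levels did. With the libraries rescaled to the same total, 32 of the 43 genes and 15 of the 17 cap genes did.

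The immunoproteasome subunits are not constitutive and serve as the reference for interferon-linked genes. Of them, Psmb8 and Psmb9 rose more than Psme1 and Psme2 in the knockdown. Psmb8 stood at 38.7, 30.2 and 24.3 in shControl and at 133, 150.3 and 139 in shPrmt1 libraries, a 4.52-fold rise without overlap (log2 fold change 2.16, SE 0.20, limma adjusted p = 0.000396). Psmb9 stood at 3.52, 6.48 and 8.85 and at 19.4, 30.3 and 31.6 (1.99, SE 0.40, limma adjusted p = 0.0138), on 94 reads in all over the 6 libraries. Exons of Psmb9 overlap those of Tap1 on the opposite strand over 5.79% of their length. Tap1 had means of 182 in shControl and 447 in shPrmt1 libraries. Exons of Psmb8 overlap an antisense transcript, Gm20496, over 14.7% of their length. Since the strand setting is not given, reads from these overlaps cannot be assigned to 1 gene. Psmb10 did not follow, at 305, 284 and 327 in shControl and 266, 246 and 298 in shPrmt1 libraries (-0.18, limma adjusted p = 0.304).

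With the inhibitors all 3 passed the test. Psmb8 stood at 875, 711 and 671 in Vehicle, at 1408, 1384 and 1507 with MS023 and at 1159, 1275 and 1115 with GSK3368715 (log2 fold changes 0.94 and 0.66). Psmb9 stood at 380.1, 243 and 240.0 in Vehicle, with the first library high, at 439, 525 and 478 with MS023 and at 513, 595 and 429.8 with GSK3368715 (0.77 and 0.85). Its call with GSK3368715 was lost without Vehicle 3 or GSK3368715 2 (limma adjusted p up to 0.0633). Psmb10 stood at 1042, 1009 and 954 in Vehicle, at 1353, 1368 and 1491 with MS023 and at 1308, 1355 and 1337 with GSK3368715 (0.49 and 0.41). For each of the 3 genes every inhibitor library was above every Vehicle library.

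Set against the constitutive subunit it can replace, the inducible form stayed the minor one in mRNA. Subunit protein and the make-up of the particles were not measured here. Per kb of exon, Psmb8 made up 0.719% ± 0.142 (SD, n = 3) of Psmb8 plus Psmb5 in shControl and 3.49% ± 0.420 in shPrmt1 cells, and 6.10% ± 0.563 with Vehicle, 11.5% ± 0.0790 with MS023 and 9.97% ± 0.613 with GSK3368715. Psmb9 made up 0.218% ± 0.0921 of Psmb9 plus Psmb6 in shControl, 0.905% ± 0.268 in shPrmt1, 3.19% ± 0.820 with Vehicle, 5.22% ± 0.566 with MS023 and 5.44% ± 0.629 with GSK3368715. Psmb10 made up 13.8% ± 0.792 of Psmb10 plus Psmb7 in shControl and 12.5% ± 0.847 in shPrmt1 cells, against 17.2% ± 0.938 with Vehicle, 23.1% ± 0.927 with MS023 and 21.5% ± 0.405 with GSK3368715. A share is formed within a library and does not depend on its size factor, but it does depend on the lengths and on near-identical copies. With the counts of Gm3375 added to Psmb5, an alternative chosen after seeing the data, the Psmb8 share was 0.409% in shControl, 2.09% in shPrmt1, 3.57% with Vehicle, 6.90% with MS023 and 5.88% with GSK3368715. With the longest transcript as the length, the Psmb8 share was 1.27% in shControl, 6.03% in shPrmt1, 10.3% with Vehicle, 18.7% with MS023 and 16.4% with GSK3368715.

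**Figure D5:**
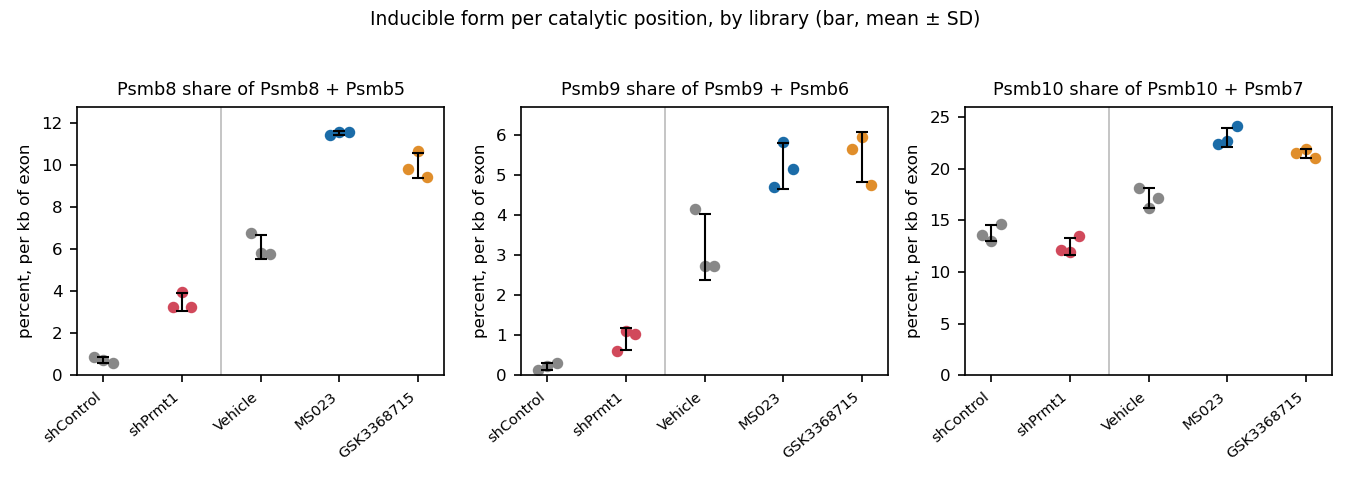
Share of the mRNA of the interferon-inducible form, in percent per kb of exon, in each library, with the mean and SD of 3 libraries. The pairs are Psmb8 with Psmb5, Psmb9 with Psmb6 and Psmb10 with Psmb7. Treated libraries lie above their control for Psmb8 and Psmb9 in both tables, and for Psmb10 under the inhibitors.

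Genes that work with the proteasome were followed in lists. In the list of antigen processing genes, which holds transporters, peptide editors and MHC class I chains, 7 of 11 were called higher in the knockdown, 9 with MS023 and 8 with GSK3368715, and none lower, against the backgrounds of 7.5%, 13.7% and 5.16% given above. Among those called in all 3 comparisons were Tapbp (tapasin, 0.68, 0.78 and 0.60 on the log2 scale), the trimming peptidase Erap1 (0.58, 0.53 and 0.46), H2-D1 (0.65, 0.56 and 0.39) and H2-K1 (0.49, 0.46 and 0.31). The call of H2-K1 with GSK3368715 was lost under most alternatives (adjusted p up to 0.125), among them those without any 1 library other than Vehicle 1, and that of Erap1 in the knockdown without the variance trend or without shControl 1 or 2 or shPrmt1 3 (up to 0.108). Among 10 other proteasome partners, such as the cap-bound deubiquitinases Usp14 and Uchl5, 0 passed the test in the knockdown (2 at an unadjusted p under 0.05), and Uchl5 alone fell with MS023 (-0.46) and with GSK3368715 (-0.37). Of 10 shuttle and p97 genes, which bring substrates to the proteasome, 3 fell in the knockdown, among them Ufd1 and Nploc4, 2 with MS023, among them Ufd1, and 0 with GSK3368715, where 0 also had an unadjusted p under 0.05, beside the 7.17%, 14.1% and 4.47% of all genes called lower. Genes of these lists called in some comparisons only, and Psmb3, Psmc4 and Psma5 among the 43, were named after their values were seen.

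The transcription factor NFE2L1 raises proteasome genes when the proteasome is inhibited. Of 7 genes of that axis, Nfe2l1 and Nfe2l2 among them, 1 was called higher and 1 lower in the knockdown. With MS023 2 were called lower and with GSK3368715 1. Of all genes tested, 7.5% were called higher in the knockdown, and 7.17%, 14.1% and 4.47% lower in the 3 comparisons. Maff, a small partner factor, fell in all 3 comparisons (-0.38, -0.41 and -0.42). Its knockdown call was lost without the variance trend or without any shControl library or shPrmt1 3 (limma adjusted p up to 0.14). Mafk fell with MS023 (-0.32) and Ngly1 rose in the knockdown (0.80). Nfe2l1 was not called in the knockdown (-0.27, limma adjusted p = 0.0857), where 4 of the 7 had an unadjusted p under 0.05. The subunits restricted to testis and thymus, Psma8 and Psmb11, had 2 and 6 reads over the knockdown libraries and 5 and 17 over the inhibitor libraries, and were not tested.

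Since Psme1 and Psme2 lie side by side, the genes around them were also read, a choice made after their values were seen. Within 50000 bases on either side 12 further genes were listed, of which 7 were tested in the knockdown and 8 with the inhibitors. Irf9, a component of the interferon-stimulated transcription factor complex, rose in the knockdown (0.64, limma adjusted p = 0.000955) and stood at 0.27 and 0.26 with MS023 and GSK3368715 without passing the test. Rnf31, which starts next to Psme2 on the other strand, rose with MS023 (0.20) and with GSK3368715 (0.27) and stood at 0.24 in the knockdown (limma adjusted p = 0.189). Dcaf11 rose with MS023 (0.30), and Pck2 fell in the knockdown (-0.47) and with MS023 (-0.53). Emc9, between Psme1 and Psme2, was near the limit of detection, at 0, 9.90 and 2.41 normalized read counts in Vehicle, 10.6, 16.4 and 16.5 with MS023 and 11.4, 5.37 and 4.46 with GSK3368715. Its log2 fold changes of 2.19 (SE 0.77, limma adjusted p = 0.056) and 1.18 rest on at most 17 reads a library and did not pass the test, and in the knockdown it was below the filter. The median log2 fold change of the neighbours was 0.12 in the knockdown, 0.16 with MS023 and 0.15 with GSK3368715, below that of Psme2 in each comparison.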

How the data were processed

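CT26 mRNA libraries (Kapa mRNA HyperPrep, paired-end reads of an Illumina NextSeq 500) were quantified per gene by the authors, and the submitters' processing notes name mm10, Salmon 1.4.0 and DESeq2. The deposited signal values are gene counts that the authors divided by 1 size factor per library, in 1 table for the knockdown and 1 for the inhibitors. Dividing each library by its smallest value above 0 gave whole reads for all values, within 0.01 reads. Tables of the authors' own comparisons, which hold fold changes and p-values, were not used. How Salmon transcripts were summed to genes and whether strand was used are not given in the sources used here.

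Groups followed the labels, and the inducer, dose and times came from the study's description. Genes with at least 10 normalized read counts in at least 3 libraries were tested with limma 3.58.1 (R 4.3.3) on log2(normalized read count + 1), with a trended variance and Benjamini-Hochberg adjustment over all genes tested. The knockdown was fitted on 6 libraries and the inhibitors on 9 libraries together, so the inhibitor fit shares its Vehicle libraries and its estimate of spread. A log2 fold change on this scale understates changes of genes at low counts. The test was run on simulated counts drawn independently for each library, with the same dispersion for every gene. That run does not cover structure shared between the real libraries. Alternatives were other pseudocounts, filters and scalings, no trend, a replicate block, edgeR 4.0.16 and DESeq2 1.42.0 on the whole reads, only the groups compared, and leaving out each library.

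Lengths and near-identical copies (BLAST+ 2.17.0) came from the GENCODE M21 annotation of GRCm38, and promoters from RefSeq for GRCm38.p6. Levels per kb use the union of exons. The genes, lists and tests were chosen with earlier results of these data known. Genes described singly were the activators, Psmf1, the catalytic and immunoproteasome subunits, and up to 5 of the largest increases and 5 of the largest decreases among the genes called in each comparison with a control. Related genes were described singly where all 3 comparisons called them, and exceptions are named in the text. Some related genes are not reported here. Depth ranged from 17284091 to 93697833 reads on genes, and no 2 libraries of a group agreed within counting noise.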

Additional observations from a re-analysis of the deposited data

Results flagged for a closer look

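Psme3 moved in opposite directions in the 2 tables. Its log2 fold change was 0.15 in the knockdown, -0.17 with MS023 and -0.12 with GSK3368715. All 3 shPrmt1 libraries were above all shControl libraries, and all 6 inhibitor libraries were below all Vehicle libraries. The difference between the knockdown and the inhibitors was not tested, because the tables were normalized separately, and of these 3 values the one with MS023 passed limma's test against its control. DESeq2 also called the value in the knockdown, and edgeR called none of the 3.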

How the results depend on the processing

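Counts of proteasome genes called were within 1.5 times the reported ones under other pseudocounts, filters, scalings and variance settings and under edgeR. DESeq2 called 7 in the knockdown, 4 with GSK3368715 and 1 between the inhibitors. Leaving out 1 library gave 1 to 7 in the knockdown, 6 to 10 with MS023 and 2 to 5 with GSK3368715. The cause was not tested. In the inhibitor table replicate numbers did not pair the libraries (correlations of same-numbered deviations from -0.10 to 0.11). In the knockdown the same-numbered correlations were weak but all positive (0.061, 0.116 and 0.081), and each library correlated best with its own number. Whether the knockdown libraries were prepared in pairs was not tested. A replicate block gave 7 in the knockdown, adding Psmb2, Psmb3, Psmc4, Psmd9 and Psmf1, and changed none of the counts past 1.5 times elsewhere. Over all genes, 1684 were called in the knockdown (2671 with the block, 652 to 2472 with 1 library left out), 3625 with MS023 (2409 to 3726 with 1 library left out), 1254 with GSK3368715 (597 with only the groups compared, 586 to 1274 with 1 library left out) and 67 between the inhibitors (377 by DESeq2, 38 with no filter, 8 with no trend, 4 with the block, 2 to 114 with 1 library left out).

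The core to cap ratio of levels with the longest transcript was 1.14 in shControl and 1.17 in Vehicle cells. In the knockdown, rescaling to the same total turned Psmb7 to 0.015 and Psme4 to 0.0061. Genes near 0 changed sign when 1 library was left out. Psmb6 ranged from -0.015 to 0.051 with GSK3368715 and from -0.0069 to 0.027 with MS023. Psmb7 ranged from -0.023 to 0.064 with GSK3368715, from -0.081 to 0.0059 with MS023 and from -0.036 to 0.010 in the knockdown. Psme4 ranged from -0.16 to 0.059 with GSK3368715, from -0.16 to 0.067 with MS023 and from -0.12 to 0.037 in the knockdown. Of the other values for single genes under alternatives that kept all libraries, 757 kept direction and side of the threshold, 13 lost and 11 gained the call. With 3 libraries a group, a core or cap gene that did not pass the test was not shown to be unchanged.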
